A study of Mus musculus with 6 samples.

Results

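The transcripts of 10 genes that supply and extend actin filaments were examined in the prefrontal cortex of juvenile mice. The genes were the cytoplasmic actins Actb and Actg1, the profilins Pfn1 and Pfn2, the capping protein subunits Capza1, Capza2 and Capzb, and the Ena/VASP family members Enah, Evl and Vasp. They were chosen by symbol, and each matched 1 row among the 17889 of the deposited table. All 10 were among the 14969 genes tested, those whose normalized count averaged 10 or more over the libraries. Messenger RNA had been sequenced in 6 libraries of C57BL/6J mice at postnatal day 28, 3 of the genotype WT and 3 whose titles say Hetero and whose genotype is given as Cyfip2 mutant. No treatment is recorded for either group, and the labels do not say which part of Cyfip2 is mutated or whether the samples of a group came from separate animals. The p-values therefore rest on the spread among these 6 samples alone, and some of it may be technical.

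The product of Cyfip2 belongs to the WAVE regulatory complex, which relays Rac signals to the Arp2/3 complex so that branched actin filaments form beneath the membrane. The genes described here act on the same filaments. Actb and Actg1 encode beta- and gamma-actin, the monomers from which the filament is built in non-muscle cells. Profilin binds the monomer and hands it to the fast-growing barbed end, and Pfn2 is the form known for its abundance in neurons. Capping protein is a heterodimer of an alpha subunit (Capza1 or Capza2) and the beta subunit Capzb, and it stops growth by covering the barbed end. Enah (also called Mena), Evl and Vasp hold the barbed end open against capping protein and feed it profilin-actin, a function known from growth cones and dendritic filopodia.

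The paralogs differ in how far their sequences can be told apart, which bears on how reads are divided between them. The first 60 coding bases of 3 pairs are shown, read from the GENCODE M21 transcripts (GRCm38), with the bases that differ within a pair in capitals.
Actb: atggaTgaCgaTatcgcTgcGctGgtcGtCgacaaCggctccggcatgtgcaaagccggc
Actg1: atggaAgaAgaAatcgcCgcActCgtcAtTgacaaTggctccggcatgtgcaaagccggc
Pfn1: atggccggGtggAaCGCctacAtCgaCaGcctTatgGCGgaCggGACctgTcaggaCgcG
Pfn2: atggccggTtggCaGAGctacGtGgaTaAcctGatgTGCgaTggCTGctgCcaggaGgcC
Capza1: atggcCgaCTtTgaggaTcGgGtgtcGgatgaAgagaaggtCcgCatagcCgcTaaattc
Capza2: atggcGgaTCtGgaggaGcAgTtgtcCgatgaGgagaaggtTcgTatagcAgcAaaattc

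The start of the actin coding sequence is shown because beta- and gamma-actin differ as proteins near their N-terminus. In this stretch the actins differed at 9 positions, the profilins at 20 and the capping alpha subunits at 13. Over the whole coding sequence of 1128 bases Actb and Actg1 were 88.7% identical, and 120 of their 128 differences fell on the last base of a codon. The longest run they shared was 62 bases. Pfn1 and Pfn2 were 61.5% identical over 423 bases, with a longest shared run of 12 bases, and Capza1 and Capza2 were 76.9% identical over 861 bases, with a longest shared run of 26. Sharing with the rest of the transcriptome was measured as the share of 31-base words of the principal transcript that also occur in a transcript of another gene. It was 57.1% for Actg1, where the shared words took in every word of the coding sequence and none of the untranslated part, and 35.1% for Actb. For Capza1 it was 80.3%, nearly all of it with the pseudogene Gm3608. It was 0.963% for Pfn1, 0.199% for Capza2, and 0.0% for Pfn2, Capzb, Enah, Evl and Vasp. The values of Actb, Actg1 and Capza1 are therefore less certain than those of the other 7 genes. Capza1 also overlaps St7l, and Evl overlaps Degs2, on the opposite strand; the library protocol keeps the strand, but whether the counting used it was not stated. In the deposited values the pseudogene copies held little signal: the pseudogene rows that share words with Actg1 summed to between 50.8 and 110 normalized counts in a library, at most 0.34% of Actg1. The highest such share was 0.51% for Actb and 1.0% for Capza1. The sums took in 7 pseudogenes for Actb and 7 for Actg1, where 24 and 11 measured genes share words with them. The gene that shares the most words with Actb, Lrrc58, is protein-coding and is not in these sums. These values follow the assignment of reads, so they do not show how many reads of a copy were counted for its parent.

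Actin genes are known targets of serum response factor (SRF), which binds the CArG box, and its cofactors sense the pool of actin monomers. RefSeq promoter windows (GRCm38.p6, 250 bases before to 50 after the start of the gene) were found for 9 of the 10 genes, all except Actb. The CArG box, searched on both strands, occurred in 1 of these 9 genes, Actg1, and in 1.63% of all 32851 windows of that length. The Actg1 match lies at chr11:120348576-120348585 on the minus strand of GRCm38, 80 bases before the RefSeq start of that window, and overlaps no annotated exon. The GENCODE gene starts farther upstream, at 120348542 for Actg1, and so nearer the box. The 70 bases around it are shown, with the box in capitals, because the SRF genes are among those measured below.
Actg1 promoter, chr11:120348546-120348615: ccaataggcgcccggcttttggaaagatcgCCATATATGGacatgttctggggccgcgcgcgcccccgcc

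Levels were compared between genes as the normalized count per kb of the principal transcript. Both actins were among the most abundant messages of the tissue: Actg1 stood at 17590 ± 1230 per kb (SD, n = 6), rank 44 of 14560 protein-coding genes tested, and Actb at 13950 ± 786 per kb, rank 62. Pfn2 followed at 5942 ± 82.4 per kb, above 98.5% of the protein-coding genes. The next 3 were Pfn1 at 2993 ± 168, Capzb at 2831 ± 116 and Capza2 at 2001 ± 80.4 per kb. Enah and Evl had nearly the same level, 1478 ± 162 and 1451 ± 75 per kb. Capza1 at 369.7 ± 10.8 per kb was in the middle range of the transcriptome, above 64.0% of genes, and Vasp at 129.2 ± 16.9 per kb was above only 37.2%. The ranges over the 6 libraries overlapped for 2 pairs of neighbours in this order, Pfn1 with Capzb and Enah with Evl, and were apart for the other 7 pairs.

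**Figure D1:**
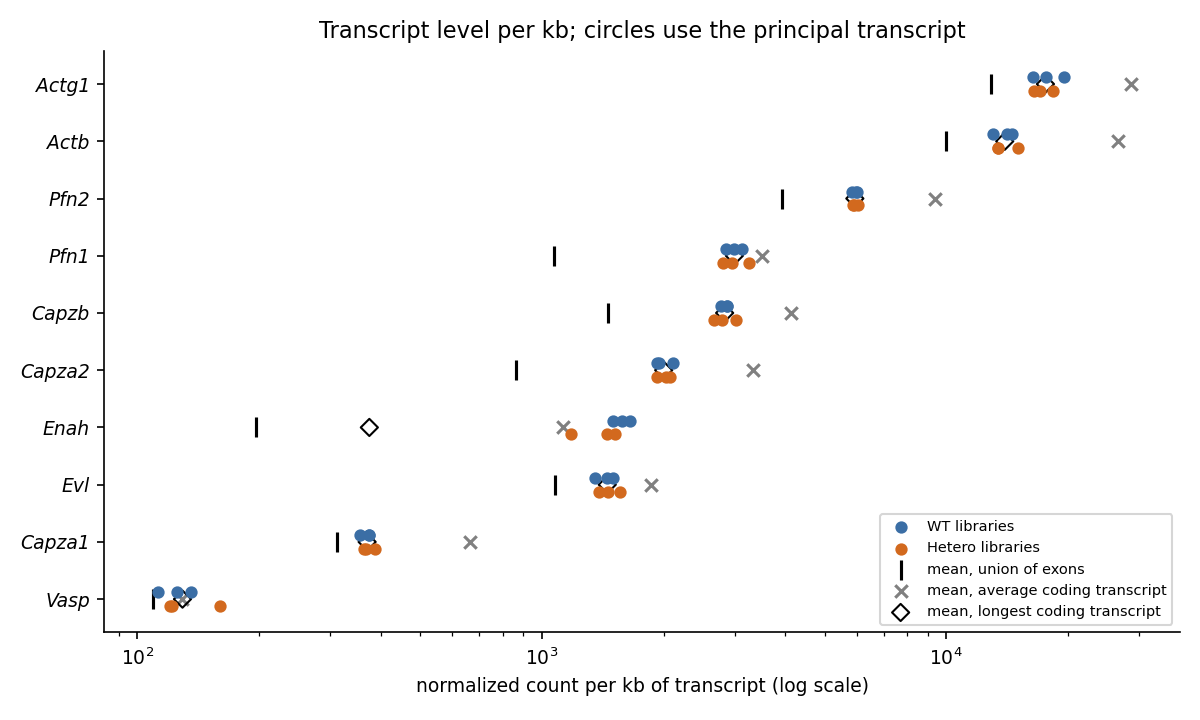
Level of the 10 genes per kb of transcript on a log axis, ordered from highest to lowest; each circle is a library, on the length of the principal transcript, and the other marks are the mean of 6 libraries with another choice of length. On the principal transcript the circles of the actins lie at or above 13020 per kb and those of Vasp between 112.1 and 159.9, and Enah is the gene whose level moves most with the choice of length.

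The order depended in part on which length was taken, most of all for Enah. Its 9 annotated coding transcripts run from 687 to 11229 bases, and its principal one has 2844. With the longest coding transcript its level was 374.4 per kb, close to Capza1, and with the union of all exons 196 per kb, while Evl stood at 1451 and 1076. Pfn1 also moved, to 1072 per kb with the union of exons, below Capzb at 1460 and Evl at 1076, and with the mean coding transcript it was at 3509 against 4135 for Capzb. The deposited table gives 1 value per gene, so which Enah isoform was present was not analysed here.

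In each of the 3 pairs 1 paralog carried more of the signal. Actg1 made up 55.8% ± 0.87 of actin message per kb (SD, n = 6) and Actb the remaining 44.2%. Pfn2 supplied 66.5% ± 1.5 of profilin message and Pfn1 33.5%, so the form best known from neurons was the larger. Capza2 held 84.4% ± 0.53 of the capping alpha message against 15.6% for Capza1, the most uneven split of the 3 pairs on principal transcripts. With the union of exons the profilins were the more uneven, with 21.4% for Pfn1 against 26.6% for Capza1. On principal transcripts Capzb stood at 1.20 ± 0.088 times the sum of both alpha subunits, which pair with it in the heterodimer. With the mean coding transcript the margin was smaller, with Capzb at 4135 per kb against 3325 for Capza2 and 664.4 for Capza1. In the Ena/VASP family Enah accounted for 48.3% ± 4.0, Evl for 47.5% ± 3.4 and Vasp for 4.24% ± 0.66. With the longest coding transcripts the Enah share was 19.2% and the Evl share 74.2%, so the leading member of this family depended on the length chosen.

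The mutated gene was checked first. Cyfip2 (ENSMUSG00000020340, chromosome 11, 46193850 to 46312859) was lower in each Hetero library than in each WT library, with means of 29977 ± 2260 for WT and 20160 ± 1630 for Hetero (SD, n = 3) and a log2 difference of -0.57. It had an adjusted p of 0.31 in limma, a linear model fitted to log2(value + 1) of all tested genes with Benjamini-Hochberg adjustment over them, and an exact two-sided permutation p of 0.1, the smallest that 3 libraries against 3 allow. Over 16 alternative settings that adjusted p lay between 0.0016 and 1.0, and Cyfip2 was lower in Hetero in each. Cyfip1 differed by 0.009 with overlapping groups.

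None of the 10 genes passed the threshold of 0.05 on the limma adjusted p, where 0% of all 14969 tested genes passed. At an unadjusted p under 0.05 there were 0 of the 10, where 3.83% of all tested genes passed, 1.66% higher and 2.17% lower in Hetero. The libraries of both groups overlapped for all 10, while 8.72% of tested genes had groups that did not overlap. Of the 10, 7 had a fitted value above 0 and 3 below. The share of all tested genes above 0 is not given here. The median absolute log2 difference was 0.013 for the 10 genes and 0.066 over all tested genes, and the median standard error was 0.064 against 0.097. On principal transcripts all except Capza1 and Vasp lay above at least 90.5% of protein-coding genes per kb. No comparison with genes of like level was made. For 8 of the 10 genes, all except Enah and Vasp, the 95% interval of the ratio of Hetero to WT lay between 0.871 and 1.133. In whole tissue a lower value from fewer cells of a type and one from less RNA per cell cannot be told apart.

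**Figure D2:**
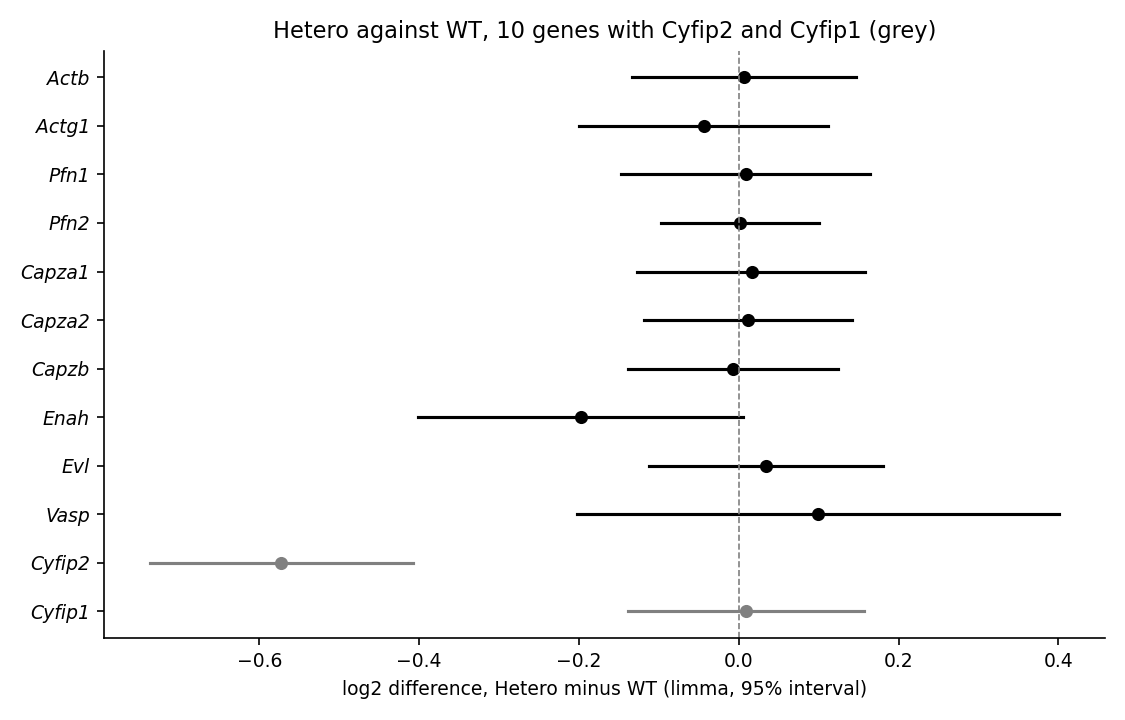
Log2 difference between Hetero and WT for the 10 genes (black) and for Cyfip2 and Cyfip1 (grey); points are limma estimates and lines are 95% intervals. The intervals of all 10 genes include 0, from the narrowest for Pfn2 to the widest for Vasp, while that of Cyfip2 runs from -0.74 to -0.41.

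Neither actin message differed between genotypes beyond the spread of its libraries. Actb (ENSMUSG00000029580, chromosome 5, 142903115 to 142906754, minus strand) read 25003, 27942 and 27203 normalized counts in WT and 25792, 25780 and 28955 in Hetero. The lowest value was a WT library and the highest a Hetero library, and the log2 difference was 0.006 (95% interval -0.13 to 0.15, limma adjusted p = 1.0). Actg1 (ENSMUSG00000062825, chromosome 11, 120345690 to 120348542, minus strand) read 31961, 38222 and 34494 in WT and 33309, 32173 and 35879 in Hetero. Both the lowest and the highest value belonged to WT, and the log2 difference was -0.04 (95% interval -0.20 to 0.11). The ratio of Actb to Actg1 was 0.782, 0.731 and 0.789 in WT and 0.774, 0.801 and 0.807 in Hetero, a log2 difference of 0.05 with an exact permutation p of 0.3. Without WT sample 2 that difference was 0.016.

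For the profilins the differences were also within the spread. Pfn2 (ENSMUSG00000027805, chromosome 3, 57841895 to 57848079, minus strand) read 14076, 13994 and 13659 in WT and 13791, 14165 and 13811 in Hetero. Its highest library was only 1.04 times its lowest, the smallest spread of the 10 genes, and the log2 difference was 0.001 (95% interval -0.097 to 0.10). Pfn1 (ENSMUSG00000018293, chromosome 11, 70651850 to 70654644, minus strand), the form found in most cell types, read 2452, 2565 and 2687 in WT and 2543, 2416 and 2800 in Hetero. Hetero held both its lowest and its highest library, and the log2 difference was 0.009 (95% interval -0.15 to 0.16). The share of Pfn1 in profilin message was 33.4% ± 1.4 (SD, n = 3) for WT and 33.5% ± 1.9 (SD, n = 3) for Hetero, a difference smaller than the spread within either group.

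Capping protein was measured through its 3 genes. Capza1 (ENSMUSG00000070372, chromosome 3, 104822779 to 104864505, minus strand) read 1193, 1133 and 1195 in WT and 1233, 1170 and 1157 in Hetero. Capza2 (ENSMUSG00000015733, chromosome 6, 17636234 to 17666972, plus strand) read 5346, 4948 and 4880 in WT and 5133, 5272 and 4880 in Hetero. For both alpha subunits the groups overlapped, with log2 differences of 0.016 (95% interval -0.13 to 0.16) and 0.011 (95% interval -0.12 to 0.14). Capzb (ENSMUSG00000028745, chromosome 4, 139192899 to 139291818, plus strand) read 4726, 4873 and 4883 in WT and 4751, 4541 and 5133 in Hetero. The 3 WT values of Capzb lay inside the range of the 3 Hetero values, and the log2 difference was -0.007 (95% interval -0.14 to 0.12). Neither the split between the alpha subunits nor the proportion of beta to alpha differed beyond the spread, with log2 differences of 0.005 and -0.019 and exact permutation p values of 1.0 and 0.9.

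**Figure D3:**
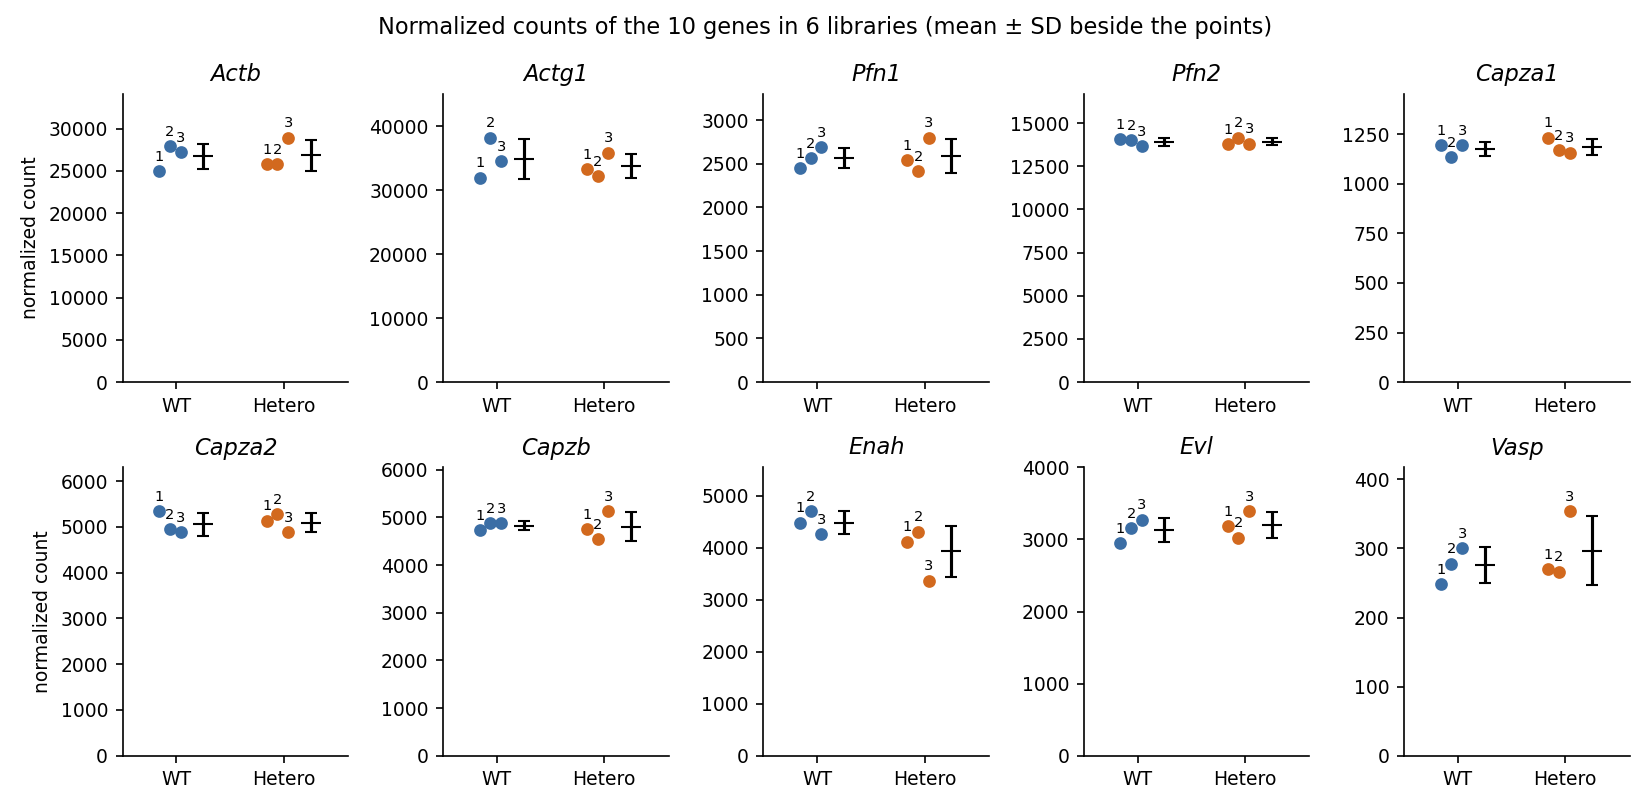
Normalized counts of the 10 genes, with 3 WT and 3 Hetero libraries as points numbered by sample and the mean ± SD beside them; each y axis starts at 0. The groups overlap for every gene, and Hetero sample 3 is the lowest point for Enah (3361) and the highest for Vasp (354.2).

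In the Ena/VASP family, Enah had the lowest unadjusted p of the 10 genes. Enah (ENSMUSG00000022995, chromosome 1, 181896384 to 182019990, minus strand) read 4482, 4703 and 4260 in WT and 4113, 4304 and 3361 in Hetero. The Hetero values were lower on average, but Hetero sample 2 exceeded WT sample 3, so the groups overlapped. The means were 4482 ± 222 and 3926 ± 498 (SD, n = 3 each), with a log2 difference of -0.20 (95% interval -0.40 to 0.005), an unadjusted limma p of 0.055, a limma adjusted p of 1.0 and an exact permutation p of 0.2. Without Hetero sample 3 the log2 difference was -0.09, so this library decided its size. The interval of its ratio of Hetero to WT runs from 0.757 to 1.004. With 3 libraries a group, both a level lower by that much and no difference lie within it.

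The level of Evl, a member known from neural and immune tissue, was about the same in both groups. Evl (ENSMUSG00000021262, chromosome 12, 108554720 to 108688516, plus strand) read 2946, 3152 and 3276 in WT and 3183, 3023 and 3394 in Hetero. The groups overlapped, with a log2 difference of 0.03 (95% interval -0.11 to 0.18). The ratio of Enah to Evl was 1.52, 1.49 and 1.30 in WT and 1.29, 1.42 and 0.99 in Hetero. Hetero sample 3 had the lowest ratio, and the log2 difference of -0.23 had an exact permutation p of 0.2 (0.9 after Benjamini-Hochberg adjustment over the 6 paralog ratios tested). It was -0.081 without Hetero sample 3.

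Vasp, best known from platelets and vascular cells, had the widest interval. Vasp (ENSMUSG00000030403, chromosome 7, 19256929 to 19271817, minus strand) read 248.3, 278.1 and 300.1 in WT and 270.1, 266.4 and 354.2 in Hetero. The third sample of each group was its highest, the groups overlapped, and the log2 difference was 0.099 (95% interval -0.20 to 0.40). Without Hetero sample 3 it was -0.034, so the direction rested on that library. The ratio of Vasp to Evl differed by 0.065 on the log2 scale, with an exact permutation p of 0.7. Over all 6 paralog ratios the adjusted permutation p values lay between 0.9 and 1.0.

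Many of the extreme values lay in Hetero sample 3 and WT sample 1. Hetero sample 3 was the highest of the 6 libraries for 5 of the 10 genes, Actb, Pfn1, Capzb, Evl and Vasp, and the lowest for Enah. WT sample 1 was the lowest for 4, Actb, Actg1, Evl and Vasp, and the highest for Capza2. The share of all tested genes with an extreme value in these libraries is not given here. Hetero sample 3 stood 0.32 above the gene mean for Vasp and 0.32 below it for Enah on the log2 scale. Pfn2 was within 0.027 of its mean in every library. Over all tested genes this library also deviated most, by a median of 0.103 against 0.071 to 0.083 in the other 5. It was estimated from the spacing of low values to be the deepest, with about 43900000 reads against 25500000 to 35700000. Whether depth had a part in these values was not tested.

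**Figure D4:**
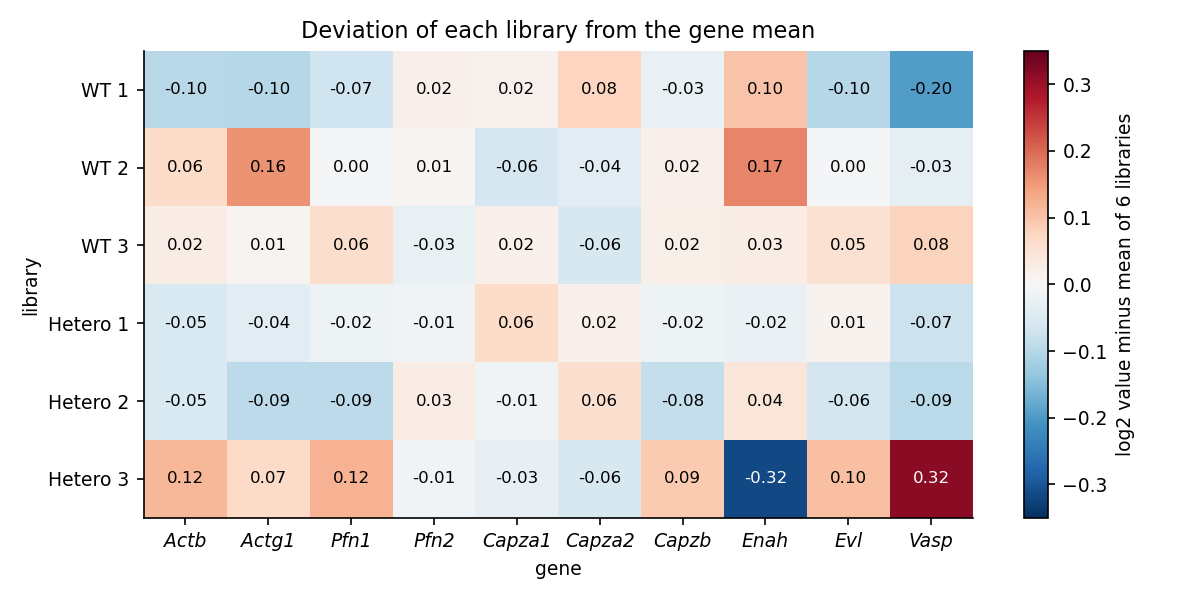
Log2 value of each gene (columns) in each library (rows) minus the mean of that gene over the 6 libraries; red is above and blue below the mean. Hetero sample 3 holds the lowest entry, -0.32 for Enah, and the highest, 0.32 for Vasp, while the Pfn2 column is nearly uniform.

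Other genes moved across the libraries much as the most variable members did. The likeness was measured as the root mean square difference of log2 values, each centred on its own mean over the 6 libraries, among 14559 other protein-coding genes tested. With so many candidates and only 6 libraries, picking the nearest gives close matches in any case. They were not read as shared behaviour. Closest to Vasp were the kinase gene Sik1, the metalloprotease gene Adam15 and Gprc5c, each at 0.039, where the median over genes was 0.20. Closest to Enah were Gli3, a transcription factor of Hedgehog signalling, at 0.029, Cnot6l, a deadenylase subunit, at 0.031 and the transcription factor gene Zeb1 at 0.034, where the median was 0.19. Among the members themselves Pfn1 and Evl were the closest pair, at 0.022, and Enah and Vasp the farthest apart, at 0.302.

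Marker lists of 10 cell types were set beside these values. Every listed marker was detected, none was at 0 in all libraries, and 0 passed the threshold. The excitatory neuron marker Slc17a7 ranged from 51010 to 58030 and the inhibitory marker Gad1 from 7367 to 8126, so both neuron classes of cortex were present. The 7 endothelial markers, led by Cldn5, summed to 7812 to 9477 in WT and 7957 to 9101 in Hetero, with the third sample of each group the highest, as for Vasp. The 5 red blood cell transcripts, Hba-a1 first, summed to 27154, 14808 and 46065 in WT and 21029, 21489 and 52503 in Hetero, again highest in the third samples. The third sample was also the highest of each group for the summed markers of inhibitory neurons, astrocytes, mature oligodendrocytes, precursors and microglia. It was not for pericytes and smooth muscle, which summed to 7132, 6426 and 6602 in WT and 6617, 6928 and 7267 in Hetero. Nor was it for meningeal fibroblasts, at 3032, 1916 and 1804 in WT and 2360, 3024 and 2776 in Hetero. For excitatory neurons the third sample was the lowest of Hetero, at 176061. As means of centred log2 values, WT sample 2 exceeded WT sample 3 for astrocytes (0.063 against 0.033) and microglia (0.079 against 0.065). The part of any of these cell types in the Vasp values was not tested. The 6 excitatory markers summed to 188156 to 195738 in WT and 176061 to 182691 in Hetero, without overlap, although only 3 of the 6 had a lower fitted value. As a mean of centred log2 values, which weights the 6 markers equally, the groups overlapped, at 0.029, -0.014 and 0.014 in WT and 0.0, -0.026 and -0.003 in Hetero. Microglial markers, with Cx3cr1 first, had lower fitted values in Hetero in 8 of 8 genes and summed to 11110 to 12379 in WT and 10620 to 11593 in Hetero, and precursor markers, with Pdgfra first, in 6 of 6, with sums of 7420 to 8678 and 6328 to 7247 that did not overlap. Fitted values were higher in Hetero for 5 of 6 inhibitory neuron markers, 2 of 6 of astrocytes (Aldh1l1 first), 1 of 6 of mature oligodendrocytes (Mbp), 3 of 7 of pericytes and smooth muscle (Pdgfrb), 5 of 6 of meningeal fibroblasts (Col1a1), 3 of 7 of endothelium and 5 of 5 of red blood cells. The share of all tested genes in each direction is not given here, and these counts were not read as differences.

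The wider actin machinery was read from a list of 91 genes grouped by role, of which 83 were tested. In Hetero 36 had a higher and 47 a lower fitted value, 0 passed the limma adjusted threshold, 2 had an unadjusted p under 0.05 (2.41%, against 3.83% of all tested genes) and 5 had groups that did not overlap (6.02%, against 8.72%). The median log2 difference was -0.013, beside -0.002 over all tested genes. Both counts are small, and neither share was read as a difference from the background. All 5 genes whose groups did not overlap, Capg, Fhod1, Dstn, Avil and Wdr1, were lower in Hetero. Of these, 3 (Dstn, Avil and Wdr1) were among the 13 tested severing and depolymerising factors and coronins. Avil averaged 11.8 for WT and 8.93 for Hetero. Its mean of 10.4 was near the filter of 10, which it passed only through its WT values. The split by direction of all tested genes whose groups did not overlap is not given here.

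Among genes that work directly with the members, differences were small or uncertain. Smooth muscle actin, Acta2, averaged 688 ± 110 (SD, n = 3) for WT and 641 ± 101 (SD, n = 3) for Hetero, and Pfn4, a further profilin, differed by -0.09. The 14 tested capping regulators and other cappers split into 7 higher and 7 lower, with Eps8, a barbed-end capper, at -0.17 and Add1, an adducin and the most abundant of the group per kb, at -0.04. Of 7 Ena/VASP binding partners 5 were lower: Fyb, an adaptor of immune cells, averaged 138 ± 31.9 for WT and 101 ± 18.0 for Hetero with overlapping groups, while Zyx, which recruits Ena/VASP to focal adhesions, differed by 0.05. Thymosin beta 4, Tmsb4x, which sequesters monomers, stood at 13300 per kb, near Actb, and differed by 0.03, and Cap1, which recharges monomers, by -0.08.

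The remaining groups of actin-binding genes were formins, other nucleators, severing and depolymerising factors with coronins, pointed-end cappers with tropomyosins, and bundlers. The 14 formins split into 7 higher and 7 lower. Fhod1, a formin of stress fibres, read 181.7, 140.5 and 169.7 in WT and 119.8, 134.3 and 107.9 in Hetero, so that its groups did not overlap, with a log2 difference of -0.44 ± 0.15 (SE), an unadjusted limma p of 0.016 and a limma adjusted p of 1.0. Fmnl1, the most abundant formin per kb, differed by 0.07. Severing and depolymerising factors and coronins were lower in 12 of 13 genes, with a median of -0.066, beside -0.002 over all tested genes. The share of all tested genes with a lower fitted value is not given here. The 13 genes were measured in the same 6 libraries, so the count was not read as a joint decrease. Wdr1, which works with cofilin to disassemble filaments, read 4711, 5207 and 5150 in WT and 4601, 4388 and 4560 in Hetero. Its groups did not overlap, with a log2 difference of -0.15 ± 0.06 (SE), an unadjusted limma p of 0.025 and an adjusted p of 1.0, and Cfl1, the main cofilin, differed by -0.06. Among the other roles Cobll1 differed by 0.15 and Spire1, a nucleator, by -0.002. Tmod2, the neuronal pointed-end capper, differed by -0.13 and Tpm1, a tropomyosin, by 0.004. The bundlers Pls3 and Fscn1 differed by -0.07 and 0.06.

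SRF and its cofactors, known to regulate actin genes through CArG boxes, did not pass the test either. The box shown for Actg1 is a sequence match, and whether SRF acts on it was not tested. Of the 3 genes 2 had a higher and 1 a lower fitted value, with Mrtfa at 0.08 and Mrtfb, the more abundant cofactor per kb, at -0.003.

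**Figure D5:**
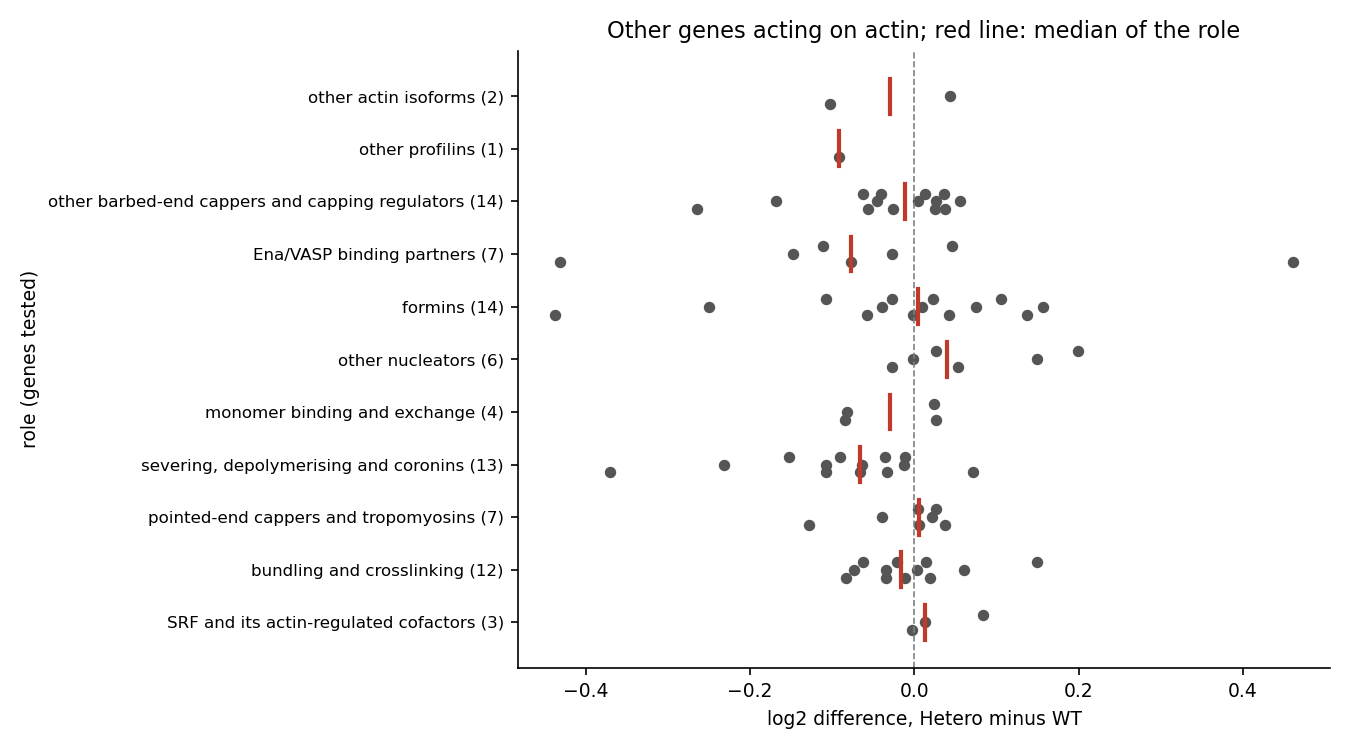
Log2 difference between Hetero and WT for 83 other genes acting on actin, by role, with the number tested in parentheses; each point is a gene and the red line is the median of the role. Medians lie between -0.092 (the single other profilin) and 0.04 (other nucleators), and no gene passed the adjusted threshold.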

How the data were processed

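The 1 table that the authors deposited holds normalized counts, treated here as a signal: values are not whole and never negative, and columns sum to between 29879143 and 30735443. Libraries were stranded and poly(A)-selected, per the labels' protocols. DESeq2 1.19.11, Salmon 0.11.2, R 3.6.0 and GRCm38 are named, without roles, in the submitters' processing notes; the authors' annotation, scaling and filter are unstated in the sources used here. Whole reads could not be recovered: the best step divided 15.5% to 28.1% of values under 60 (within 0.02 of a step), so no count test was run. Column totals divided by that step gave the estimated reads.

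Identifiers were matched to GENCODE M21 (17875 of 17889), and coordinates are 1-based. Values were analysed as log2(value + 1) for genes with a mean of at least 10, with limma 3.58.1 in R 4.3.3 (intensity trend, robust fitting, two-sided). Exact permutation tests covered single genes and 6 paralog ratios. Lengths were those of the longest APPRIS principal transcript. On simulated data for this comparison (14907 genes, 50 changed at each fold) 18% of genes changed 1.25-fold, 50% at 1.5-fold, 86% at 2-fold and 92% at 3-fold were recovered, with 9 unchanged genes called. The simulation drew noise for each gene separately, without deviations shared across a library. Its many changed genes also loosen the adjusted threshold, whereas no gene passed in the measured data. These rates may therefore overstate what the comparison could detect. Libraries of a group differed by a median of at least 0.095 (log2), so none was a copied column of another in its group. Repeat libraries of 1 animal could not be recognised in this way. All members are named. In each role group of the actin list the gene with the smallest p and the one highest per kb are named, with the first marker of each cell type and the 3 genes closest in pattern to each of the 2 most variable members. The genes of the actin list whose groups did not overlap are named as well. The members and lists were chosen with earlier results of these data known. Alternatives were other variance fitting, scaling, filters, pseudocounts, a replicate block, samples left out, other lengths, a pseudogene added and, chosen after seeing the data, removal of GC content and length trends and the longest coding transcript.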

Additional observations from a re-analysis of the deposited data

How the results depend on the processing

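The counts of 0 members and 0 actin list genes past the threshold held under all 17 alternatives, a threshold of 0.1 included. Over all genes the counts higher and lower were 1 and 1 with the replicate block (Jun and Cyfip2), 3 and 1 without sample 3 of both groups (Jun, Gm7334 and AC149090.1, and Cyfip2), and 0 and 1 with GC content and length trends removed (Cyfip2). They ranged from 0 to 1 in each direction when 1 sample was left out (Rpl15-ps3 without WT sample 1, Gm10240 without Hetero sample 2). The genes in parentheses were picked with their values known. Cyfip2 passed in those first 3 settings, with log2 differences of -0.573, -0.565 and -0.553 and adjusted p of 0.0016, 0.013 and 0.037. Whether the numbers pair the samples could not be settled. Deviations of same-numbered libraries correlated across genes by -0.005, 0.004 and 0.227, the last between the third samples. Those of differently numbered libraries correlated by -0.184 to 0.181. With the replicate block Enah had an adjusted p of 0.64.

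Differences near 0 changed sign when 1 sample was left out: Actb ranged from -0.0495 to 0.039, Actg1 from -0.11 to 0.024, Pfn1 from -0.0499 to 0.057, Pfn2 from -0.012 to 0.01, Capza1 from -0.012 to 0.033, Capza2 from -0.014 to 0.051, Capzb from -0.055 to 0.033, Evl from -0.0092 to 0.074 and Vasp from -0.034 to 0.17. So did the log2 ratios of Pfn1 to Pfn2 (-0.057 to 0.068), Capza1 to Capza2 (-0.024 to 0.043), Capzb to both alpha subunits (-0.096 to 0.0397) and Vasp to Evl (-0.025 to 0.12). Enah kept its sign (-0.27 to -0.09), as did the ratios of Actb to Actg1 (0.016 to 0.07) and Enah to Evl (-0.34 to -0.081). Without sample 3 of both groups Actb was -0.036, Pfn1 -0.017, Pfn2 -0.006 and the ratio of Pfn1 to Pfn2 -0.011. Pfn2 was -0.0003 with median centring and -0.0011 with GC and length trends removed.

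Shares per kb moved with the length used. With the union of exons they were 21.4% for Pfn1, 26.6% for Capza1, 14.2% for Enah, 77.9% for Evl and 7.9% for Vasp. With the mean coding transcript they were 48.2% for Actb, 27.2% for Pfn1, 16.7% for Capza1, 36.1% for Enah and 59.8% for Evl. With the longest coding transcript they were 19.2% for Enah, 74.2% for Evl and 6.6% for Vasp.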
